A study of Mus musculus with 36 samples.

Results

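Fatty acid oxidation and the target genes of the nuclear receptor PPARA are described here through a list of 38 genes in 36 mouse liver libraries. All 38 were present in the deposited table of 29546 genes, matched by symbol. Genes had to reach a normalized count of 10 in 4 or more libraries to be tested, which left 12596 genes and 37 of the 38 members. The member that did not pass was Cyp4a32, at most 4.13 in any library and with 0 reads in all 4 livers ligated for 28 days, where a count of 0 allows up to 3 reads. All mice were C57BL/6. Cholestasis, the failure of bile flow, was produced by surgical ligation of the bile duct (BDL), by cyclosporin A at 15 mg/kg in olive oil by oral gavage (CsA), or by feeding 3,5-diethoxycarbonyl-1,4-dihydrocollidine at 0.1% wt/wt of the diet (DDC), each for 7 or 28 days. The controls were sham surgery (SHAM), olive oil by gavage (VEHICLE) and control diet (CTLD). Each of the 9 groups had 4 libraries, and each control group stood for both days because its labels carry no day. The labels give no age or sex, and the library numbers are called replicates below.

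In the liver a fatty acid is bound in the cytosol by FABP1, activated to its acyl-CoA, and carried into mitochondria by the carnitine shuttle, where beta-oxidation removes acetyl units and passes electrons to the electron transfer flavoprotein. Peroxisomes shorten very long and branched chains, microsomal CYP4A enzymes oxidize the far (omega) end, and the acetyl-CoA that is not burned leaves the liver as ketone bodies. PPARA, paired with RXR, binds direct repeats of AGGTCA spaced by 1 base and is the main activator of these steps in fasting.

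The libraries were 3′ tag libraries with molecular identifiers, so each value counts transcripts by their 3′ ends and is not divided by length. They held 2081093 to 3770267 reads, with a median of 2826073. Correlation of log2 values between replicates was 0.945 or higher in every group except BDL28, where it reached down to 0.918. BDL28 replicate 1 correlated least with the other 3, and results that rest on it are given with and without it. The design text gives 4 mice a model without tying libraries to animals, so p-values measure the spread between these samples, which may be partly technical. Hepatocyte markers were abundant in every library: the summed normalized counts of 10 of them (Alb, Ttr, Apoa1 and others) were 72756 to 81003 in SHAM, 43162 to 54126 in BDL7, 50772 to 60625 in BDL28, 83041 to 102735 in CTLD, 49826 to 61492 in DDC7 and 48104 to 58699.6 in DDC28.

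Ligation and DDC feeding lowered most of the list, while CsA moved almost none of it. Differences are on the scale of log2(normalized count + 1), tested for all 12596 genes with limma, and a gene counts as called where its p, adjusted by Benjamini-Hochberg over those genes, is under 0.05. In BDL7 against SHAM, 26 of 37 members fell and 4 rose, where 18.5% of all genes were called lower and 20.2% higher. The median difference of the members was -0.73, against 0.01 for all genes. In BDL28 26 fell and 3 rose, beside 22.7% and 24.1% of all genes, with a median of -0.86. Without BDL28 replicate 1 the counts were again 26 and 3. In DDC7 against CTLD 24 fell and 5 rose (22.1% and 24.7% of all genes), with a median of -0.64. In DDC28 25 fell and 3 rose (24.7% and 27.9% of all genes), with a median of -0.82. In CsA7 against VEHICLE 1 rose and 0 fell, where 1.88% and 2.14% of all genes were called. Of the members, 3 higher and 2 lower had an unadjusted p under 0.05 in CsA7, and edgeR's quasi-likelihood test called 3 higher and 0 lower. In CsA28 limma and edgeR each called 0 members, where limma called 0.00794% of all genes higher and 0.0159% lower, and 1 member had an unadjusted p under 0.05. In bulk liver, fewer cells of a type and less RNA per cell cannot be told apart.

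Counted by library instead of by test, members whose 4 treated libraries all lay outside the range of the 4 controls numbered 26 lower and 3 higher in BDL7 (19.2% and 19.8% of all genes), 26 lower and 3 higher in BDL28 (18.6% and 18.7% of all genes), 21 lower and 5 higher in DDC7 (20.8% and 23.2% of all genes) and 24 lower and 4 higher in DDC28 (22% and 25% of all genes). Under CsA they numbered 1 lower and 2 higher in CsA7 (5.26% and 5.01% of all genes) and 2 lower and 0 higher in CsA28 (2.64% and 1.85% of all genes).

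**Figure D1:**
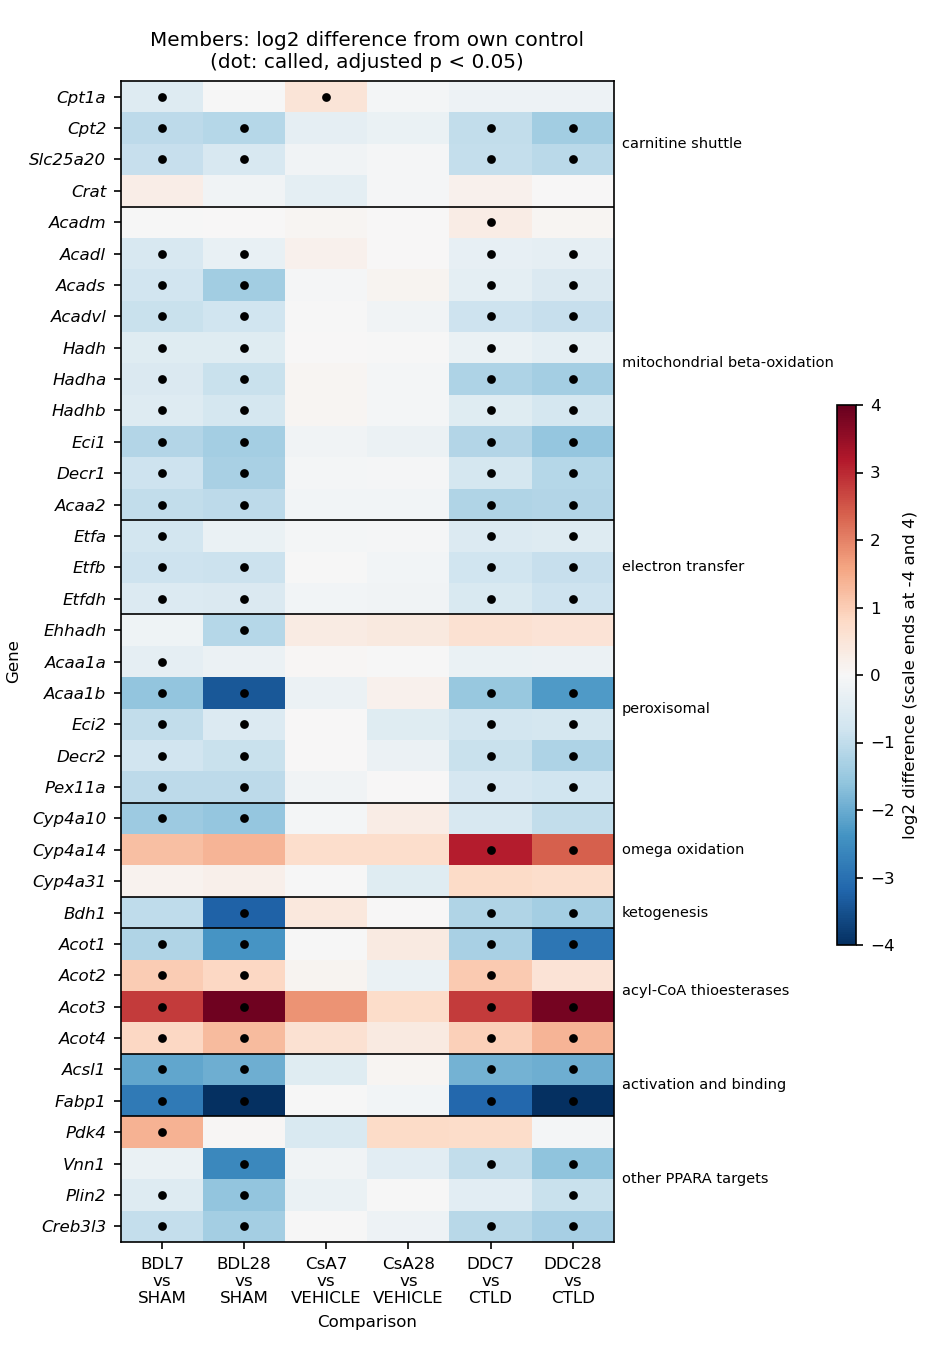
Log2 difference of each of 37 members (rows, grouped by role) from its own control in 6 comparisons (columns), blue for lower and red for higher, with a dot where limma called it. The BDL and DDC columns are mostly blue, with red rows for Acot2, Acot3, Acot4 and Cyp4a14, and the CsA columns hold a single dot, for Cpt1a.

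The deposited values carry the submitters' size-factor scaling, and the choice of scaling bears on the smaller differences. Scaling each library to its total count instead moved the median difference of all genes to 0.33 in BDL7, 0.29 in BDL28, 0.38 in DDC7 and 0.39 in DDC28. The share of higher among all called genes then went from 52.3% to 84.2% in BDL7, from 51.5% to 74.3% in BDL28, from 52.8% to 82.2% in DDC7 and from 53.01% to 78.5% in DDC28. The members' median under that scaling was -0.41, -0.60, -0.29 and -0.46 in the same order, below that of all genes in each. Members called lower and higher were then 18 and 5 in BDL7, 24 and 4 in BDL28, 16 and 8 in DDC7, and 20 and 7 in DDC28.

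Total-count scaling ended the calls of Cpt1a (-0.18), Hadha (-0.24), Etfdh (-0.23), Hadh (-0.16), Plin2 (-0.21), Acaa1a (-0.03), Hadhb (-0.20) and Acot1 (-0.90) in BDL7, Eci2 (-0.28) and Acadl (-0.04) in BDL28, Acadl (0.04), Etfdh (-0.28), Hadh (0.10), Acads (-0.05), Etfa (-0.19), Vnn1 (-0.64), Bdh1 (-0.86) and Hadhb (-0.13) in DDC7 and Acadl (0.02), Hadh (-0.04), Acads (-0.21), Etfa (-0.14) and Bdh1 (-0.99) in DDC28. Quantile normalization ended those of Acot2 (0.60), Cpt1a (-0.31), Hadh (-0.19), Plin2 (-0.14) and Acaa1a (-0.23) in BDL7, Acot2 (0.52) and Acadl (-0.09) in BDL28, Acadl (-0.12), Hadh (0.03), Acads (-0.26) and Bdh1 (-1.05) in DDC7 and Acadl (-0.16) and Hadh (-0.14) in DDC28. The falls of Fabp1, Acsl1, Cpt2, Slc25a20, Acadvl, Eci1, Decr1, Acaa2, Etfb, Acaa1b, Decr2, Pex11a and Creb3l3 and the rises of Acot3 and Acot4 were called under the deposited, quantile and total-count scalings in all 4 groups.

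By compartment, transcripts of most mitochondrial and peroxisomal members fell while those of the omega-oxidizing members went in different directions. Of the 17 members of the mitochondrial steps, 15, 13, 14 and 14 were called lower in BDL7, BDL28, DDC7 and DDC28, with median log2 differences of -0.73, -0.70, -0.62 and -0.82. Of the 6 peroxisomal members, 5, 5, 4 and 4 were called lower, with medians of -0.87, -0.97, -0.71 and -0.75. Of the 3 omega-oxidizing members tested, 1 was lower in each BDL group and 1 higher in each DDC group, and the medians were 0.13, 0.20, 0.77 and 0.70. With 3 genes, these medians are the values of Cyp4a31 alone, and most omega-oxidizing genes beyond the list, counted below, fell. Of the 4 acyl-CoA thioesterases, 3 were higher in BDL7, BDL28 and DDC7 and 2 in DDC28, with 1 lower in each, and Bdh1 was the only ketogenic member. Over all genes, 18.5% to 24.7% were called lower and 20.2% to 27.9% higher in the same comparisons. The medians of all genes there lay between 0.01 and 0.04, and whether the branches differ from each other was not tested.

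Fabp1 encodes the cytosolic fatty acid binding protein of the liver, a classic PPARA target, and it fell furthest of the list in ligated and DDC-fed livers. Its normalized counts were 8880.0, 8718, 8559 and 7454 in SHAM, 1172, 1956, 797 and 1053 in BDL7 and 586, 22.1, 48.3 and 86.8 in BDL28. No ligated library reached the lowest sham library, and at day 28 replicate 1 stood well above the other 3. The log2 difference from SHAM was -2.83 (SE 0.53, adjusted p = 0.00011) in BDL7 and -6.58 (SE 0.53, adjusted p = 6.4e-11) in BDL28, or -7.50 without BDL28 replicate 1. In the diet arm Fabp1 stood at 8979.9, 11731, 10318 and 9191 in CTLD, 1137, 1071, 1217 and 1101 in DDC7 and 729.8, 816, 248 and 321 in DDC28. Here too the treated and control libraries did not overlap, and the differences were -3.14 (SE 0.53, adjusted p = 2.2e-05) and -4.42 (SE 0.53, adjusted p = 8.4e-08). Under CsA the values stayed within 8875 to 9981 at day 7 and 7992 to 9936 at day 28, overlapping the 7572 to 11578 of VEHICLE. As a share of all reads, Fabp1 took 0.275 ± 0.0227% (SD, n = 4) in SHAM, 0.0508 ± 0.0193% in BDL7 and 0.00777 ± 0.0116% in BDL28.

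Acsl1, the main long-chain acyl-CoA synthetase of the liver, fell in both models at both days. It was at 3092, 3099, 2773 and 3092 in SHAM, 602, 747, 721 and 814 in BDL7 and 607, 716, 882 and 956 in BDL28. In the diet arm it was at 2713, 3239.6, 3070.3 and 3167 in CTLD, 784, 678, 1189 and 712 in DDC7 and 703, 763, 828 and 861 in DDC28. Every treated library lay below every control library of its arm, with log2 differences of -2.07 (adjusted p = 1.9e-12), -1.95 (adjusted p = 2.3e-12), -1.89 (adjusted p = 8.9e-12) and -1.95 (adjusted p = 2e-12) in BDL7, BDL28, DDC7 and DDC28. In CsA7 Acsl1 was -0.47 (adjusted p = 0.078), which did not pass.

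**Figure D2:**
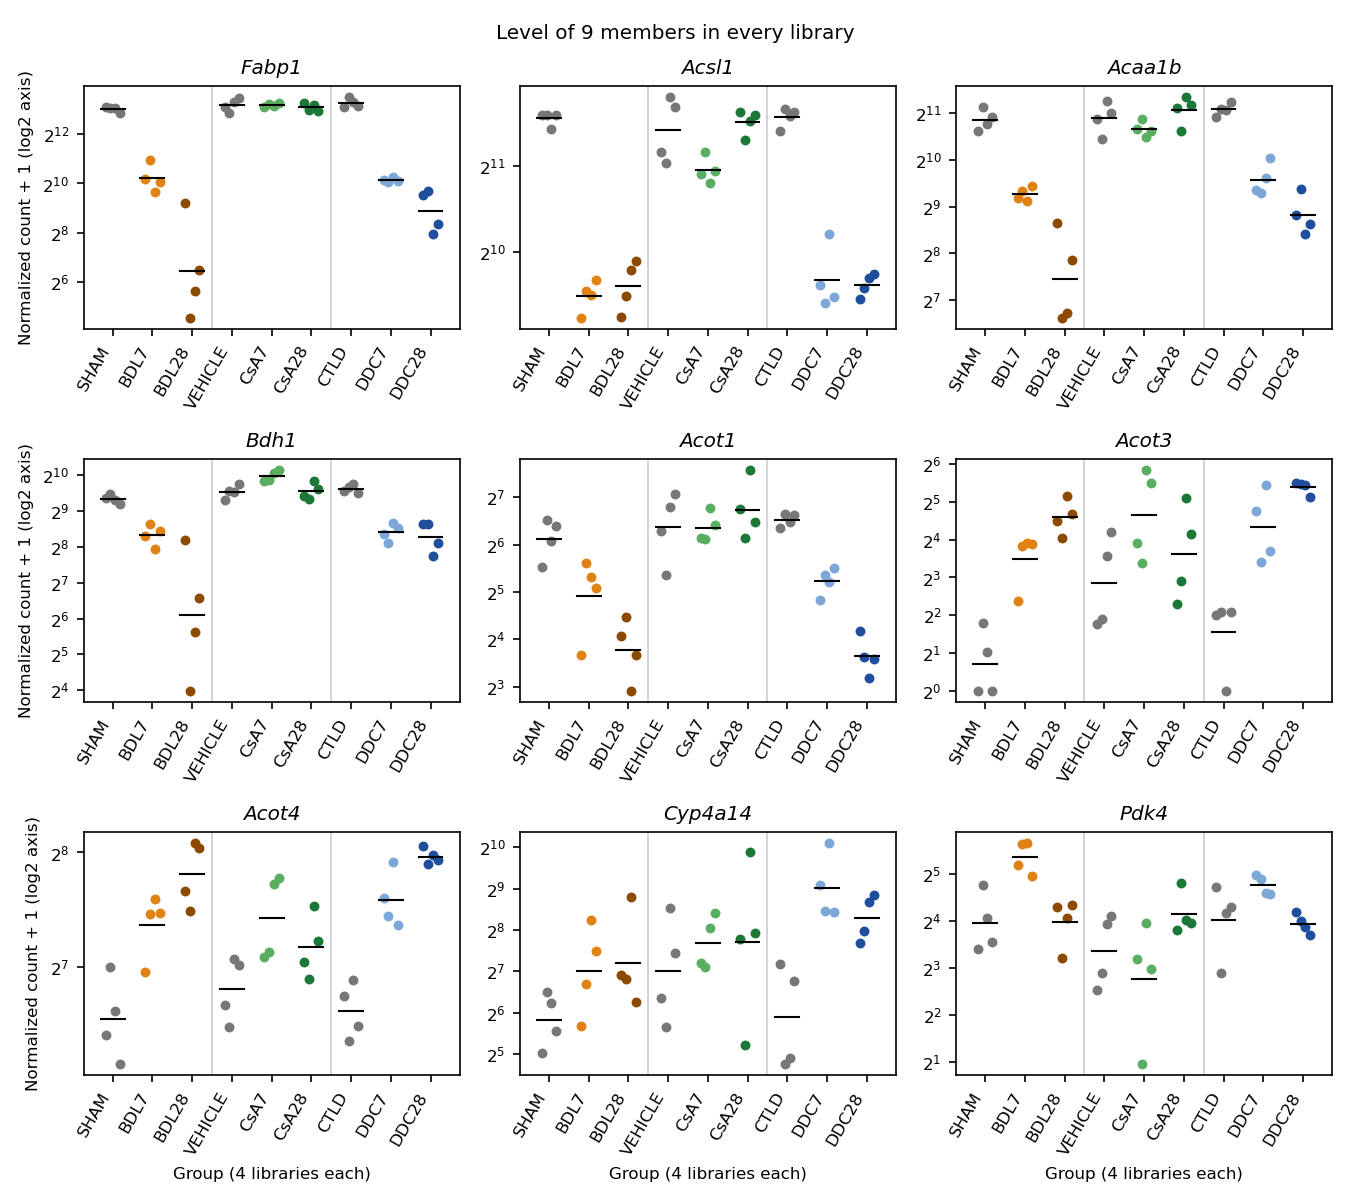
Normalized count + 1 (log2 axis) of 9 members in every library, by group, with controls in grey and a line at the mean of the log values. Fabp1, Acsl1 and Acaa1b drop without overlap in BDL and DDC, Acot3 and Acot4 climb, and BDL28 replicate 1 sits above its group for Fabp1, Acaa1b and Bdh1.

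The list is built around a receptor with a known DNA motif, so the promoters were searched for it. RefSeq windows of build GRCm38.p6, from 250 bases before to 50 after each start, were found for 31 of the 38 members. Those of Cyp4a10, Cyp4a14, Cyp4a31, Vnn1, Decr1, Crat and Acaa2 were not among them. The motif, AGGTCA followed by any base and a second AGGTCA, was searched on both strands with at most 2 mismatches over its 12 fixed letters. It matched in 6 of the 31 members (19.4%) and in 4.40% of all 27025 genes with a window. A match is a description of letters, and a window without one says nothing of sites elsewhere. The 6 matches are shown because they lie near starts of genes of both directions. Fabp1, Slc25a20, Etfa, Plin2 and Creb3l3 were each called lower in at least 3 of the 4 BDL and DDC comparisons. Acot4 was called higher in all 4. Creb3l3 had 2 windows, with the match in that of its downstream start and none in that of its upstream start. Each match is printed 5′ to 3′ on the strand that matches, and the capitals mark the match.
Fabp1 (chr6:71199812-71199824): AGGCCATAGGTCA
Acot4 (chr12:84038366-84038378): CGGCCAAAGGTCA
Slc25a20 (chr9:108662142-108662154): AGGTGAAAGGTCG
Etfa (chr9:55512308-55512320): AGGGCAAAGGTAA
Plin2 (chr4:86670272-86670284): AGGTCAGGGGTCC
Creb3l3 (chr10:81092788-81092800): AGGGGAGAGGTCA

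The Fabp1 match differed from the motif at 1 of 12 letters and the other 5 at 2. Its first base lay 67 bases before the start and that of Acot4 13 bases before, whereas the Slc25a20 match began 7 bases after the start. The 100 bases before the start of Fabp1 (chr6:71199779-71199878, plus strand) and of Acot4 (chr12:84038279-84038378, plus strand), both GRCm38.p6, show the match in capitals as it reads on the gene's own strand, which is the reverse complement of the motif.
Fabp1: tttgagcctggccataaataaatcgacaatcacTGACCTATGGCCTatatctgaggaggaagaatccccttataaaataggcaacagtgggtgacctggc
Acot4: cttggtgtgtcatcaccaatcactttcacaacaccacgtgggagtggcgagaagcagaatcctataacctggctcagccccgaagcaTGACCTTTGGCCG

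Of the carnitine shuttle, Cpt2 and Slc25a20 fell in BDL and DDC at both days, and Cpt1a moved little. Cpt2, the carnitine palmitoyltransferase of the inner membrane, was at 224, 280.5, 264 and 259.7 in SHAM, 134, 113, 121 and 128 in BDL7 and 96.4, 110.3, 114 and 150.1 in BDL28. It was at 236, 293, 283 and 204 in CTLD, 105, 109, 171 and 125 in DDC7 and 96.8, 96.1, 98.6 and 92.8 in DDC28. The differences of Cpt2 were -1.05, -1.13, -0.997 and -1.38 in that order of treated groups, with adjusted p between 2.2e-10 and 3e-07. Slc25a20, the carnitine-acylcarnitine exchanger, differed by -0.92, -0.64, -0.94 and -1.08, and limma called each. Cpt1a, the outer membrane enzyme that sets the rate of entry, was lower in BDL7 at -0.51 (SE 0.14, adjusted p = 0.005) but -0.01 in BDL28, -0.19 in DDC7 and -0.22 in DDC28, none of which passed. Crat, the carnitine acetyltransferase, ran from -0.15 to 0.26 in these 4 comparisons and was not called in any.

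Of the 10 enzymes of mitochondrial beta-oxidation, 9 fell in each of BDL7, BDL28, DDC7 and DDC28 and Acadm did not. The 9 differed by -1.16 to -0.49 in BDL7, -1.39 to -0.30 in BDL28, -1.24 to -0.25 in DDC7 and -1.56 to -0.34 in DDC28. Eci1, an enoyl-CoA isomerase for unsaturated chains, had the lowest difference of the 9 in BDL7 and in DDC28. It was at 272, 324, 314 and 314 in SHAM and 128, 149, 149.6 and 121 in BDL7, and at 333, 374, 529.8 and 398 in CTLD and 122, 129, 164 and 134 in DDC28. The groups did not overlap, with differences of -1.16 (SE 0.13, adjusted p = 5.2e-09) and -1.56 (SE 0.13, adjusted p = 2e-12). Hadha and Hadhb, the 2 subunits of the trifunctional protein for long chains, fell by unequal amounts in DDC: Hadha differed by -1.24 and -1.34 and Hadhb by -0.47 and -0.69 at days 7 and 28. The difference between the genes was not tested. Acadm, the medium-chain dehydrogenase, was at 1028, 1062, 1007 and 1041 in SHAM, 872, 1166, 1086 and 1030.3 in BDL7 and 910.0, 1047, 1099 and 1185 in BDL28. Those libraries overlapped, and the differences of -0.0023 in BDL7 and 0.03 in BDL28 were not called with the deposited scaling. limma called Acadm higher in BDL7 with quantile normalization (0.31, adjusted p = 0.0076) and with total-count scaling (0.32, adjusted p = 0.0055), and likewise in BDL28 (0.24, adjusted p = 0.037 and 0.29, adjusted p = 0.0098) and DDC28 (0.40, adjusted p = 0.00055 and 0.45, adjusted p = 0.00013). In DDC7 Acadm rose by 0.29 (adjusted p = 0.02), a call lost without CTLD replicate 1 or DDC7 replicate 3 (0.22 to 0.25).

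Acadvl, the very-long-chain dehydrogenase that starts the mitochondrial spiral, was at 421, 389.7, 367 and 377 in SHAM, 192, 223, 219 and 203 in BDL7 and 198, 225, 225 and 258 in BDL28, and at 429, 471, 472 and 462 in CTLD, 244, 236, 298 and 248 in DDC7 and 210.0, 219, 266 and 281 in DDC28. Its treated and control libraries did not overlap, with differences of -0.89, -0.78, -0.84 and -0.92. Acaa2, the thiolase that ends each turn, was at 1914, 1905, 1981 and 1929 in SHAM, 821, 836, 935 and 1183 in BDL28, 2148, 2644, 2464 and 2385 in CTLD and 939.8, 1023, 1174 and 1176 in DDC28. Its differences were -1.05 (SE 0.10, adjusted p = 3.8e-11) and -1.16 (SE 0.10, adjusted p = 2.6e-12) at day 28, and -0.996 and -1.20 at day 7. Decr1, the dienoyl-CoA reductase needed for polyunsaturated chains, was at 533, 588, 552 and 578 in SHAM, 301, 381, 288 and 303 in BDL7 and 285, 200.3, 182 and 254 in BDL28. The day 28 libraries lay lowest, and the differences were -0.83 and -1.31 in ligation and -0.70 and -1.15 in DDC at days 7 and 28.

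The smallest falls depended on the scaling or on 1 library. Hadh, the short-chain hydroxyacyl dehydrogenase, was -0.25 in DDC7, but 0.03 with quantile normalization and 0.10 with total-count scaling, and it was not called without CTLD replicate 4 or DDC7 replicates 1 or 2 (-0.21 to -0.20). Acadl, the long-chain dehydrogenase, was -0.31 in DDC7 and -0.34 in DDC28, but 0.04 and 0.02 with total-count scaling, and its DDC7 call was lost without DDC7 replicate 2 (-0.23). The larger falls of Eci1, Acaa2 and Decr1 were called under every scaling tried in these 4 comparisons.

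Transcripts of the electron transfer members went in the same direction. Etfa and Etfb encode the electron transfer flavoprotein that accepts electrons from the acyl-CoA dehydrogenases, and Etfdh its ubiquinone oxidoreductase. Etfb was at 795, 786, 812 and 817 in SHAM and 445, 500.5, 475 and 409.8 in BDL7, and at 793, 934, 889 and 907 in CTLD and 508, 495, 502 and 496 in DDC7. No treated library overlapped its controls, and the differences of Etfb were -0.81, -0.86, -0.81 and -0.93 in BDL7, BDL28, DDC7 and DDC28, all called. Etfdh differed by -0.56, -0.58, -0.62 and -0.82, all called. Etfa was -0.73, -0.53 and -0.50 in BDL7, DDC7 and DDC28, but in BDL28 it was -0.25 (adjusted p = 0.1), which did not pass.

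The peroxisomal members were uneven, from a deep fall of Acaa1b to small differences of Acaa1a. Acaa1b, a peroxisomal thiolase, was at 1567, 2265, 1743 and 1948 in SHAM, 581, 648, 554 and 696 in BDL7 and 404, 97.4, 104 and 230.4 in BDL28. It was at 1952, 2200.2, 2141 and 2422 in CTLD, 658, 626, 784 and 1049 in DDC7 and 455, 667, 339 and 398 in DDC28. All treated libraries lay below their controls, with differences of -1.59 (SE 0.29, adjusted p = 7.2e-05), -3.40 (SE 0.29, adjusted p = 1.4e-10), -1.51 (SE 0.29, adjusted p = 0.00011) and -2.27 (SE 0.29, adjusted p = 2.1e-07), and -3.80 in BDL28 without replicate 1. Its near copy Acaa1a was -0.35 in BDL7, called but lost without SHAM replicate 2 (-0.28), and -0.23, -0.26 and -0.22 in BDL28, DDC7 and DDC28, not called. The last 300 bases of the pair are 72.7% identical and share a run of 101 bases in the GRCm38 annotation, so how reads were divided between them is uncertain.

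Ehhadh, the bifunctional enzyme of peroxisomal beta-oxidation and a strong PPARA target, was at 277, 248, 332 and 336 in SHAM, 144, 300.1, 407 and 282 in BDL7 and 95.4, 74.4, 167 and 266 in BDL28. In BDL28, 3 of the 4 libraries lay below the lowest sham library, and the difference was -1.14 (SE 0.37, adjusted p = 0.012), which was -0.87 and not called without BDL28 replicate 2. In DDC7 and DDC28 it was 0.60 (adjusted p = 0.18) and 0.53 (adjusted p = 0.23), neither past the threshold. With total-count scaling limma called Ehhadh higher in both, at 0.95 (adjusted p = 0.028) and 0.89 (adjusted p = 0.036). Eci2, Decr2 and Pex11a, an isomerase, a dienoyl reductase and a factor of peroxisome division, were called lower in each of the 4 comparisons, with differences from -0.99 to -0.54 for Eci2, -1.23 to -0.76 for Decr2 and -1.05 to -0.67 for Pex11a.

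The omega-oxidizing Cyp4a genes did not move as a group. Cyp4a14, a fatty acid omega-hydroxylase known for strong induction by PPARA ligands, was at 143, 25.9, 28.7 and 107 in CTLD, 539, 353, 1091 and 343 in DDC7 and 206, 251, 408 and 459 in DDC28. All DDC libraries lay above all CTLD libraries, by 3.13 (SE 0.78, adjusted p = 0.0016) and 2.41 (SE 0.78, adjusted p = 0.011). Its level also varied widely without DDC, at 81.4, 49.1, 372 and 174 in VEHICLE and 36.5 to 942 in CsA28. The highest VEHICLE library exceeded the lowest library of DDC7 and that of DDC28. In ligated livers Cyp4a14 was at 31.7, 89.4, 73.6 and 46.2 in SHAM, 50.1, 102, 300.1 and 178 in BDL7 and 119, 111, 442 and 76.1 in BDL28. Those groups overlapped and the differences of 1.19 (adjusted p = 0.24) and 1.37 (adjusted p = 0.15) did not pass. Cyp4a10, another omega-hydroxylase of the same cluster on chromosome 4, went the other way in ligation at -1.47 (SE 0.46, adjusted p = 0.012) and -1.55 (SE 0.46, adjusted p = 0.0064), and in DDC it was -0.64 (adjusted p = 0.26) and -0.995 (adjusted p = 0.068). Cyp4a31 ran from 0.13 to 0.77, and with the deposited scaling and all groups in the fit limma called it in none of the 4. With total-count scaling limma called Cyp4a31 higher in DDC7 (adjusted p = 0.013) and DDC28 (adjusted p = 0.016). It was also called higher in DDC28 by limma with only the groups compared in the fit (adjusted p = 0.02). In DDC7 edgeR called it higher as well (adjusted p = 0.049). Cyp4a10 and Cyp4a31 are 93.3% identical over their last 300 bases, so the split of reads between these 2 is uncertain.

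Bdh1, the mitochondrial enzyme that makes beta-hydroxybutyrate, was the ketogenic member. It was at 656, 705, 636 and 592 in SHAM, 317, 399, 244 and 349.6 in BDL7 and 291, 14.7, 48.3 and 94.3 in BDL28. All ligated libraries were below sham, yet the BDL7 difference of -1.001 (SE 0.44, adjusted p = 0.075) did not pass, while BDL28 was -3.25 (SE 0.44, adjusted p = 8.6e-07), or -3.95 without replicate 1. The BDL7 difference was called by edgeR (adjusted p = 0.017) and by limma when only the 2 groups entered the fit (adjusted p = 2.3e-05). In DDC it was 761, 814, 861 and 731 in CTLD, 327, 276, 406 and 369 in DDC7 and 394, 399.5, 213 and 273 in DDC28. These groups did not overlap either, with -1.21 (SE 0.44, adjusted p = 0.026) and -1.35 (SE 0.44, adjusted p = 0.012), the first not called without CTLD replicate 3 or DDC7 replicate 2 (-1.17 to -1.11) or without the filter on low values (adjusted p = 0.056).

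The acyl-CoA thioesterases, which release free fatty acids from acyl-CoA, split within a single gene cluster: Acot1 fell where Acot3 and Acot4 rose. The 4 genes lie next to each other on chromosome 12 in RefSeq, in the order Acot2, Acot1, Acot4, Acot3, and their last 300 bases are 52.7% to 58.7% identical with no shared run over 12 bases. Acot1, the cytosolic enzyme, was at 45.4, 90.6, 66.3 and 83.01 in SHAM, 11.7, 47.8, 38.9 and 32.8 in BDL7 and 15.7, 21.1, 6.50 and 11.8 in BDL28, and at 81.1, 98.8, 88.7 and 98.2 in CTLD, 27.6, 39.95, 35.9 and 44.6 in DDC7 and 17.2, 11.4, 8.14 and 11.02 in DDC28. In BDL7 the highest library overlapped the lowest sham library, while the day 28 and DDC libraries all lay below their controls. The differences were -2.35 (SE 0.37, adjusted p = 4.7e-06) in BDL28 and -2.88 (SE 0.37, adjusted p = 1.2e-07) in DDC28. In DDC7 it was -1.30 (adjusted p = 0.0045) and in BDL7 -1.21 (adjusted p = 0.0094), the latter -0.79 and not called without BDL7 replicate 1, nor when only the 2 groups entered the fit (adjusted p = 0.061).

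Acot4, a peroxisomal thioesterase, was at 83.9, 127, 96.8 and 69.97 in SHAM, 123, 175, 192 and 176 in BDL7 and 202, 178, 269 and 262 in BDL28. It was at 106, 80.9, 117 and 88.4 in CTLD, 194, 173, 240.2 and 164 in DDC7 and 265, 237, 251 and 243 in DDC28. The libraries separated in every pair but BDL7, where 1 library fell just under the highest sham value, and the differences were 0.83 (adjusted p = 0.00054), 1.27 (adjusted p = 8.9e-07), 0.97 (adjusted p = 6.8e-05) and 1.35 (adjusted p = 2.6e-07). Acot3, also peroxisomal, is scarce in SHAM and CTLD liver: 0, 2.48, 1.05 and 0 in SHAM, 4.18, 13.2, 13.96 and 13.7 in BDL7 and 21.6, 15.6, 34.4 and 24.7 in BDL28, and 3.04, 3.24, 0 and 3.27 in CTLD, 26.1, 9.59, 42.9 and 12.04 in DDC7 and 43.7, 43.4, 42.5 and 33.99 in DDC28. Every ligated or DDC library exceeded every control library of its arm. VEHICLE, the control of CsA, was at 2.39, 2.78, 10.9 and 17.4, and its highest library exceeded every BDL7 library. The 4 SHAM libraries held 3 Acot3 reads in all, so the ratio over SHAM was 12.3-fold (95% exact interval 3.99 to 61.8) in BDL7 and 26.7-fold (95% exact interval 8.87 to 132) in BDL28, and over the 8 reads of CTLD 8.80-fold (95% exact interval 4.31 to 20.9) in DDC7 and 16.9-fold (95% exact interval 8.44 to 39.8) in DDC28, intervals that cover counting error only. On the log2 scale, limma gave 2.79 (adjusted p = 0.00065), 3.89 (adjusted p = 6.6e-06), 2.78 (adjusted p = 0.00053) and 3.83 (adjusted p = 6.2e-06). Acot2, the mitochondrial form, rose by 1.02 in BDL7, 0.82 in BDL28 and 1.05 in DDC7 and was 0.56 (adjusted p = 0.12) in DDC28, and its BDL28 call was lost without the filter on low values (adjusted p = 0.054), with edgeR (0.85) and without SHAM replicate 4 or BDL28 replicates 2 or 4 (0.69 to 0.75). With total-count scaling limma called Acot2 higher in DDC28 as well (0.89, adjusted p = 0.014). In the GRCm38 annotation Acot3 and Acot4 both share exons with a read-through gene, so part of their reads could be divided differently.

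Among the other PPARA targets, Creb3l3, a membrane-bound liver transcription factor, fell in all 4 groups, with differences of -0.97, -1.37, -1.10 and -1.34 in BDL7, BDL28, DDC7 and DDC28. Its libraries were at 539, 603, 591 and 596 in SHAM against 197, 171, 220.1 and 347 in BDL28, with no overlap. Vnn1, the pantetheinase, was at 44.04, 54.6, 46.3 and 17.8 in SHAM, 29.2, 35.6, 33.9 and 27.5 in BDL7 and 6.89, 8.27, 2.79 and 5.36 in BDL28. It overlapped sham at day 7, at -0.25 (adjusted p = 0.66), and lay below it at day 28, at -2.58 (SE 0.39, adjusted p = 2.1e-06). In DDC it was -0.97 (adjusted p = 0.042) and -1.60 (adjusted p = 0.00097), the day 7 call lost without CTLD replicates 1, 3 or 4 or DDC7 replicates 1 or 2 (-0.91 to -0.72), with total-count scaling (-0.64, adjusted p = 0.18) and without the filter on low values (adjusted p = 0.076). Plin2, which coats lipid droplets, was -0.53 (adjusted p = 0.02) in BDL7, -1.58 (adjusted p = 1.6e-08) in BDL28, -0.42 (adjusted p = 0.054) in DDC7 and -0.88 (adjusted p = 0.00014) in DDC28, and its BDL7 call was lost without SHAM replicate 2 or BDL7 replicate 4 (-0.48 to -0.45) and without the filter on low values (adjusted p = 0.054). Pdk4, the kinase that shuts pyruvate dehydrogenase, stood apart in direction: 9.63, 26.1, 15.8 and 10.7 in SHAM against 35.1, 48.8, 48.9 and 29.8 in BDL7, all higher, 1.40 (SE 0.44, adjusted p = 0.01). In BDL28, DDC7 and DDC28 it was 0.04, 0.73 and -0.08, not called with the deposited scaling. With total-count scaling limma called Pdk4 higher in DDC7 (1.06, adjusted p = 0.045).

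Summed over the list, the 38 members took 0.956 ± 0.0590% of all reads (SD, n = 4) in SHAM, 0.524 ± 0.0413% in BDL7 and 0.414 ± 0.0442% in BDL28. The shares were 1.03 ± 0.0159% in CTLD, 0.602 ± 0.0715% in DDC7 and 0.509 ± 0.00945% in DDC28, and 1.01 ± 0.136% in VEHICLE, 1.07 ± 0.0720% in CsA7 and 1.05 ± 0.127% in CsA28. Much of the drop was Fabp1: without it the shares were 0.681 ± 0.0473%, 0.473 ± 0.0298% and 0.407 ± 0.0412% in SHAM, BDL7 and BDL28, and 0.716 ± 0.0198%, 0.558 ± 0.0701% and 0.488 ± 0.0127% in CTLD, DDC7 and DDC28. The 17 mitochondrial members (shuttle, beta-oxidation, electron transfer) went from 0.334 ± 0.0139% in SHAM to 0.259 ± 0.0199% in BDL28 and from 0.368 ± 0.00739% in CTLD to 0.288 ± 0.0136% in DDC28. The 6 peroxisomal members went from 0.126 ± 0.0167% to 0.0525 ± 0.00733% and from 0.134 ± 0.00790% to 0.0729 ± 0.00341% in the same pairs. The 4 omega-oxidizing members were at 0.0158 ± 0.00285% in SHAM and 0.0141 ± 0.00893% in BDL28, with a spread wider than the difference, and at 0.0189 ± 0.00569% in CTLD and 0.0252 ± 0.00963% in DDC28.

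**Figure D3:**
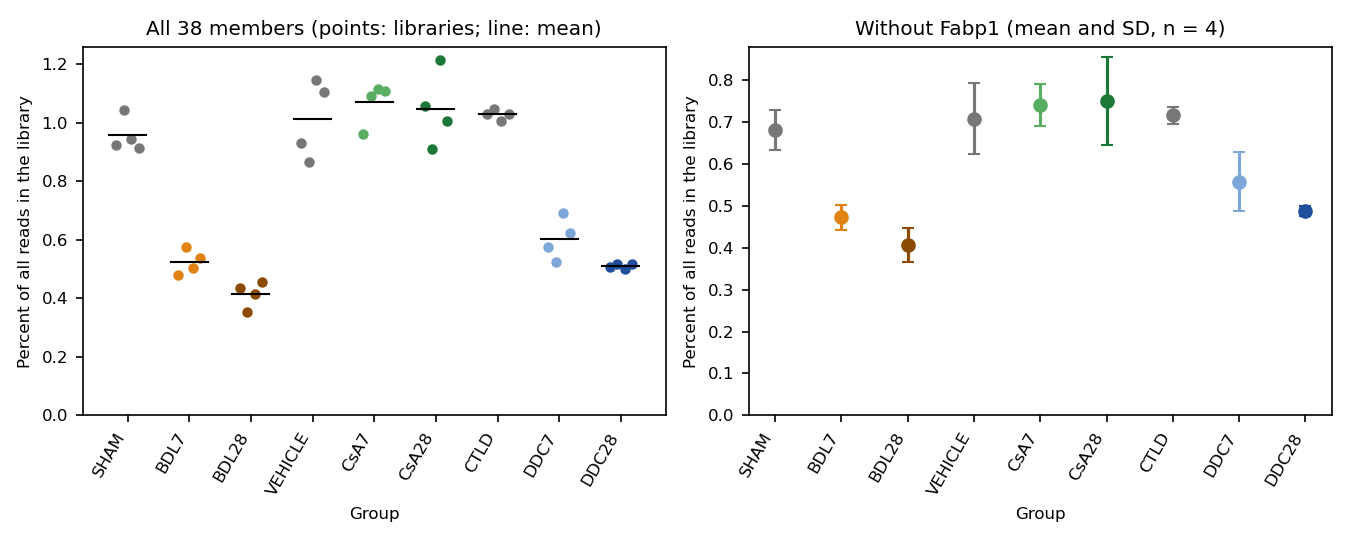
Percent of all reads in a library taken by the 38 members (left, points are libraries and the line their mean) and by the 37 without Fabp1 (right, mean and SD of 4 libraries). BDL and DDC groups sit well below their controls on the left and closer to them on the right, and CsA groups sit at the level of VEHICLE.

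CsA changed 1 member by limma's test, Cpt1a in CsA7. The 37 differences ran from -0.60 to 1.79 in CsA7 and from -0.48 to 0.78 in CsA28, with medians of -0.02 and -0.04. Cpt1a was at 703, 617, 478 and 775 in VEHICLE, 728, 909, 1094 and 918 in CsA7 and 539.8, 678, 609 and 580.2 in CsA28. In CsA7, 3 of 4 libraries exceeded the highest VEHICLE library. The difference was 0.51 (SE 0.14, adjusted p = 0.035), a call lost without VEHICLE replicates 2 or 3 or CsA7 replicates 2, 3 or 4 (0.38 to 0.51) and, at 0.51, without the filter on low values and when only the 2 groups entered the fit. By day 28 it was -0.08 (adjusted p = 0.92). edgeR called Acot3 (1.98) and Acot4 (0.66) higher in CsA7 as well, where limma gave 1.79 (adjusted p = 0.11) and 0.62 (adjusted p = 0.0508). The libraries of 3 members did not overlap in CsA7. For Bdh1 they were at 638, 762, 744 and 858 in VEHICLE and 921, 928, 1069.9 and 1127 in CsA7, every treated library above every control, at 0.43 (adjusted p = 0.69). Acot4 also lay above its controls and Cpt2 below, at -0.35 (adjusted p = 0.16), and limma called none of the 3. At day 28 Eci2 alone had an unadjusted p under 0.05, at -0.47 (adjusted p = 0.29).

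Between the models, the difference of effects was tested directly, each effect against its own control. The BDL7 effect was below the CsA7 effect for 21 members and above it for 1, Pdk4, where 11.9% and 11.7% of all genes were called. The DDC7 effect was below the CsA7 effect for 19 and above for 0 (12.8% and 14.2%), where 3 members above had an unadjusted p under 0.05 and edgeR also called 0 above. At day 28 the counts were 23 below and 2 above for BDL (15% and 14.8%) and 22 below and 2 above for DDC (17.1% and 18.5%), the 2 above being Acot3 and Acot4 in both. Of the 37 members Fabp1 had the lowest difference of effects in all 4 tests, -2.83 and -3.14 at day 7 and -6.48 and -4.31 at day 28.

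Ligation and DDC feeding, which share no control libraries, shared most of their calls, among members and among all genes. At day 7, 22 members were lower in both, 84.6% of the 26 in BDL7 and 91.7% of the 24 in DDC7. At day 28, 24 were lower in both, 92.3% of the 26 in BDL28 and 96.0% of the 25 in DDC28. Higher in both were Acot2, Acot3 and Acot4 at day 7 and Acot3 and Acot4 at day 28, and no member was called in opposite directions. Over all 12596 genes, the genes lower in both made up 65.8% of those in BDL7 and 55.1% of those in DDC7, and 70.4% and 64.6% at day 28. Those higher in both made up 68.2% and 55.9% at day 7 and 69.2% and 59.8% at day 28. Of all genes, 51 were lower in BDL7 and higher in DDC7 and 23 the reverse, with 47 and 50 at day 28. Whether the members differ from the genes at large in this was not tested. In limma's test of the difference of effects, BDL was above DDC for 1 member and below for 0 at day 7 (3.78% and 4.68% of all genes, with 3 members below at an unadjusted p under 0.05 and 0 by edgeR), and 1 above and 2 below at day 28 (4.69% and 5.59%). Hadha fell less in BDL than in DDC, by 0.68 (SE 0.14, adjusted p = 0.0032) at day 7 and 0.45 (SE 0.14, adjusted p = 0.044) at day 28. Its controls differed: 469, 530.0, 523 and 512 in SHAM against 803, 968, 834 and 799.8 in CTLD, while the treated libraries were at 291, 364, 355 and 369 in BDL7 and 364, 304, 415 and 357 in DDC7, so the treated ranges overlapped and the control ranges did not. Acads, the short-chain dehydrogenase, was at 632, 603, 618 and 547 in SHAM and 222, 175, 239 and 288 in BDL28, and at 467, 565, 518 and 499.7 in CTLD and 298, 324, 357 and 403 in DDC28. It fell further in BDL28 than in DDC28, with a difference of effects of -0.82 (SE 0.16, adjusted p = 0.0015), and that of Ehhadh was -1.67 (SE 0.52, adjusted p = 0.039). The Ehhadh call was lost without any 1 of SHAM replicates 1, 3 or 4, BDL28 replicates 1 or 2, CTLD replicates 1 or 2, DDC28 replicates 1, 3 or 4 (-1.71 to -1.30). The day 28 Hadha call was lost without any 1 of SHAM replicates 1, 2, 3 or 4, BDL28 replicates 3 or 4, CTLD replicates 2 or 3, DDC28 replicates 1, 3 or 4 (0.37 to 0.47). Both were also lost without the filter on low values (-1.67, adjusted p = 0.088 for Ehhadh and 0.45, adjusted p = 0.085 for Hadha), with quantile normalization (-1.61, adjusted p = 0.053 and 0.42, adjusted p = 0.064) and when only the 4 groups compared entered the fit (-1.67, adjusted p = 0.11 and 0.45, adjusted p = 0.069). Ehhadh was not called by edgeR (-1.40, adjusted p = 0.0512), nor Hadha with total-count scaling (0.35, adjusted p = 0.13).

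Fabp1, Bdh1 and Acaa1b, each lower in BDL28 than in DDC28 by their point values, had differences of effects of -2.16 (adjusted p = 0.065), -1.90 (adjusted p = 0.051) and -1.13 (adjusted p = 0.076), which did not pass with all libraries. Without BDL28 replicate 1, the library that stood above its group for these genes, limma called all 3 further down in BDL28, at -3.08, adjusted p = 6.8e-05 for Fabp1, -2.60, adjusted p = 0.00024 for Bdh1 and -1.53, adjusted p = 0.0023 for Acaa1b. Because that library was high for these 3 genes, leaving it out lowers both their mean and their spread. These calls therefore show its weight and are no separate test of a difference between the models. Without it limma also called Plin2 below (-0.84, adjusted p = 0.025, from -0.70, adjusted p = 0.075) and Slc25a20 above (0.59, adjusted p = 0.045, from 0.44, adjusted p = 0.19), while Ehhadh was not called. Without DDC28 replicate 3 it called Fabp1 (-2.47, adjusted p = 0.042), Bdh1 (-2.08, adjusted p = 0.044) and Plin2 (-0.82, adjusted p = 0.043), without BDL28 replicate 4 Bdh1 (-2.06, adjusted p = 0.048) and Plin2 (-0.81, adjusted p = 0.047), and with total-count scaling Bdh1 (-1.997, adjusted p = 0.048). Cyp4a14, which was called in DDC and not in BDL, was -1.93 (adjusted p = 0.3) and -1.04 (adjusted p = 0.59) in the test of the difference, so it was not shown to differ.

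**Figure D4:**
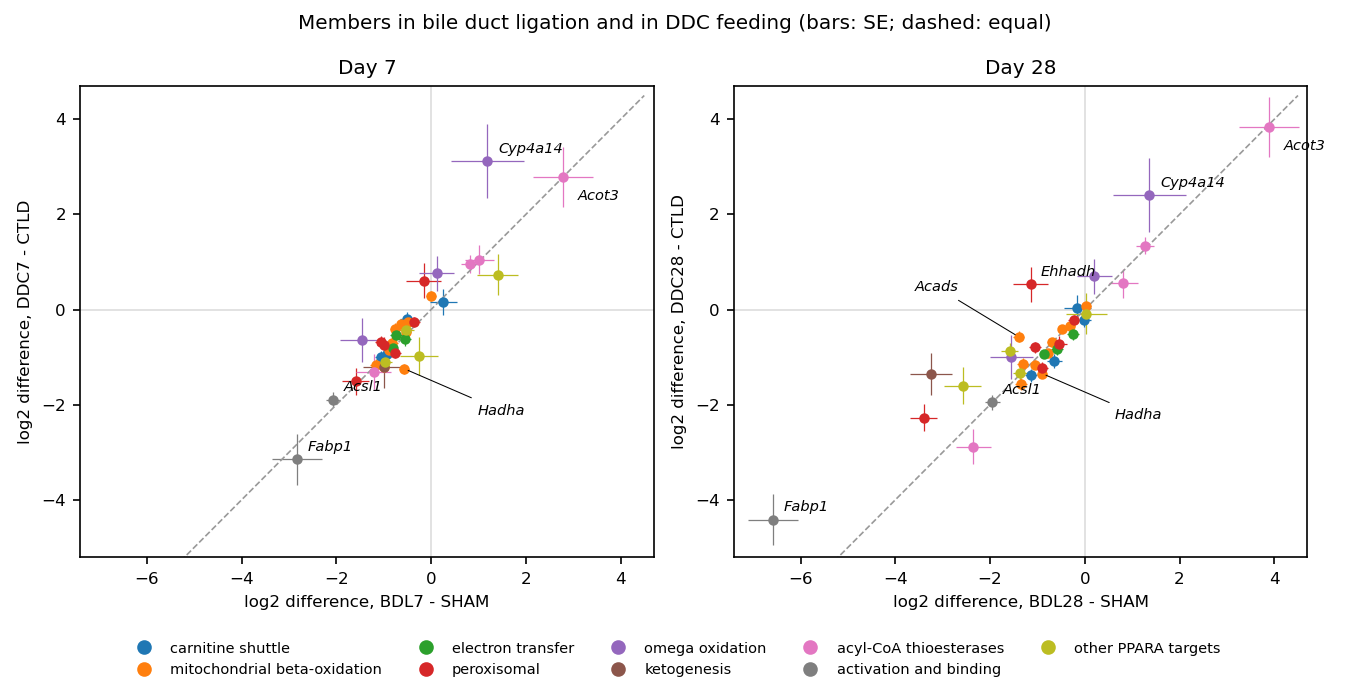
Log2 difference of 37 members in BDL against SHAM (x axis) and in DDC against CTLD (y axis) at day 7 (left) and day 28 (right), coloured by role, with bars of 1 SE. Most points lie near the dashed line of equal effects, Fabp1 at the lower end and Acot3 at the upper. Among those off it at day 28 are Fabp1, Bdh1, Ehhadh, Acaa1b, Cyp4a14 and Acads (Bdh1 and Acaa1b unlabelled).

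From day 7 to day 28 of ligation, 12 members fell further and 4 rose (16.7% and 14% of all genes). All 4 BDL28 libraries lay below all 4 BDL7 libraries for 7 members and above for 3 (12.1% and 10.9% of all genes). The further falls were led by Fabp1 at -3.75, Vnn1 at -2.32, Bdh1 at -2.25 and Acaa1b at -1.81, which without BDL28 replicate 1 were -4.67, -2.42, -2.95 and -2.21. The 4 that rose, Cpt1a (0.50), Etfa (0.48), Eci2 (0.45) and Acadl (0.33), were members that had been called lower in BDL7. With only the 2 groups in the fit, 9 of the 16 calls were lost, leaving 1 higher and 6 lower: Bdh1 (-2.25, adjusted p = 0.094), Acot1 (-1.14, adjusted p = 0.095), Ehhadh (-0.99, adjusted p = 0.15), Decr1 (-0.48, adjusted p = 0.0502), Creb3l3 (-0.40, adjusted p = 0.2) and Hadha (-0.33, adjusted p = 0.081) among the falls, and Etfa (0.48, adjusted p = 0.075), Eci2 (0.45, adjusted p = 0.069) and Acadl (0.33, adjusted p = 0.067) among the rises. Without the filter on low values Ehhadh (adjusted p = 0.086) and Creb3l3 (adjusted p = 0.065) were lost, with total-count scaling Acadl (0.27, adjusted p = 0.061), and by edgeR Creb3l3 (-0.38, adjusted p = 0.06). Leaving out 1 of the 8 libraries moved the counts to 8 to 12 lower and 2 to 5 higher. Of the calls that rose, Eci2 was lost without BDL7 replicates 1 or 4 or BDL28 replicates 2, 3 or 4 (0.35 to 0.45) and Acadl without BDL7 replicate 1 or BDL28 replicate 2 (0.26 to 0.27). Of those that fell, Creb3l3 was lost without BDL7 replicates 1, 2 or 4 or BDL28 replicates 1, 2 or 3 (-0.39 to -0.27) and Ehhadh without BDL7 replicates 2, 3 or 4 or BDL28 replicates 1 or 2 (-0.96 to -0.71). Acot1 was lost without BDL7 replicates 2 or 3 or BDL28 replicate 3 (-1.01 to -0.85), and Pdk4 (-1.11) and Hadha (-0.27) without BDL28 replicate 2. Between the days of DDC, Decr1 (-0.45) and Acot1 (-1.58) fell further and limma and edgeR called 0 higher (3.63% and 2.07% of all genes), with 1 member higher and 9 lower at an unadjusted p under 0.05. All 4 DDC28 libraries lay below all 4 DDC7 libraries for 9 members and above for 0 (7.54% and 7.49% of all genes). The Decr1 call was lost without DDC7 replicates 3 or 4 or DDC28 replicates 3 or 4 (-0.44 to -0.38). Between the days of CsA, Acsl1 was 0.56 (adjusted p = 0.042) and Cpt1a -0.59 (adjusted p = 0.019) (1.37% and 1.07% of all genes were higher and lower). The CsA28 libraries all lay below those of CsA7 for 3 members and above for 1 (5.26% and 4.77% of all genes). The Acsl1 call was lost without CsA7 replicates 1, 3 or 4 or CsA28 replicates 1, 3 or 4 (0.51 to 0.56) and without the filter on low values (adjusted p = 0.11), and the Cpt1a call without CsA7 replicates 3 or 4 or CsA28 replicates 1 or 4 (-0.58 to -0.50).

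The 3 kinds of control were not equal for this list. VEHICLE exceeded SHAM for 9 members and lay below it for 2 (9.65% and 10.3% of all genes), and CTLD exceeded SHAM for 5 and lay below for 0 (7.84% and 8.09%, with 1 member lower at an unadjusted p under 0.05 and 0 by edgeR). Between VEHICLE and CTLD limma and edgeR called 0 members, 4 having an unadjusted p under 0.05 with limma, and 0.0318% of all genes were called higher and 0.0318% lower. Hadha was 0.63 in VEHICLE and 0.74 in CTLD relative to SHAM, and Decr2 0.81 and 0.56. Acot3, at 2.39, 2.78, 10.9 and 17.4 in VEHICLE, was 2.16 (adjusted p = 0.015) above SHAM. What set the sham livers apart, surgery or anything else that went with them, cannot be told apart in this design.

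Ppara itself fell in the same livers. It was at 393 ± 60.5 in SHAM, 170.3 ± 33.2 in BDL7, 158 ± 27.8 in BDL28, 466 ± 73.3 in CTLD, 144 ± 19.3 in DDC7 and 197 ± 23.05 in DDC28 (mean ± SD, n = 4) and differed by -1.21 (SE 0.13, adjusted p = 6.4e-09), -1.32 (SE 0.13, adjusted p = 4.2e-10), -1.68 (SE 0.13, adjusted p = 2.6e-12) and -1.23 (SE 0.13, adjusted p = 1.5e-09) in BDL7, BDL28, DDC7 and DDC28, and it was higher in CsA7 at 0.57 (SE 0.13, adjusted p = 0.0095). Of 16 tested genes of PPARA and its partners, 6, 3, 7 and 5 fell in that order of groups, and 2 rose in BDL28, 4 in DDC7 and 4 in DDC28. Among those that fell were Rxra, the obligate partner, at -0.49 in BDL7, and Ppard, a related receptor, at -2.25 in DDC7 and -2.26 in DDC28. In CsA7 Ppard was -2.14 and the coactivator Ppargc1b 1.90. Of all genes, 18.5% to 24.7% were called lower and 20.2% to 27.9% higher in the BDL and DDC comparisons.

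Genes of the pathway beyond the 38 were counted in the same comparisons, branch by branch. The counts stand beside 18.5% to 24.7% of all genes called lower and 20.2% to 27.9% called higher in BDL and DDC. Of 16 other mitochondrial oxidation genes, 13, 12, 10 and 11 fell in BDL7, BDL28, DDC7 and DDC28, and 1 rose in each DDC group, with Acadsb, the branched short-chain dehydrogenase, at -1.16, -1.42, -1.07 and -1.38. Of 20 other peroxisomal genes, 15, 15, 12 and 14 fell and 3, 5, 3 and 4 rose. Nudt7, a peroxisomal hydrolase of coenzyme A, was lower by limma at -2.60 (SE 0.12, adjusted p = 6.5e-18), -4.12 (SE 0.12, adjusted p = 1.1e-24), -3.56 (SE 0.12, adjusted p = 1.6e-22) and -4.33 (SE 0.12, adjusted p = 3.8e-25). Scp2, a thiolase for branched chains, was -1.13, -1.69, -0.99 and -1.28. Of 15 peroxisome assembly factors, 9, 6, 7 and 8 fell.

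Of 10 other omega-oxidizing genes, 8, 8, 8 and 8 fell and 2, 2, 2 and 2 rose. Cyp4f14 was -1.21, -2.79, -1.66 and -2.74, and Cyp4a12a was -4.75 in BDL7, -6.44 in BDL28 and -7.96 in DDC28. In the GRCm38 annotation a neighbouring copy of Cyp4a12a is 97.0% identical to it over the last 300 bases. The split of reads between these 2 is therefore uncertain. Of 7 other genes of ketone handling, 3, 4, 2 and 4 fell and 2, 1, 2 and 2 rose. The monocarboxylate carrier Slc16a7 was higher at 1.16, 1.68, 1.34 and 1.73. Summed over these 7 genes, however, the mean level was lower in the treated groups. It was 5306.7 in SHAM, 2829.6 in BDL7 and 2860.8 in BDL28, and 5769.6 in CTLD, 3311.8 in DDC7 and 3181.5 in DDC28. Of 17 genes of the tricarboxylic acid cycle, 10, 8, 8 and 10 fell and 1, 3, 2 and 2 rose, with Idh3b at -0.91, -0.65, -0.69 and -0.81. Other genes known as PPARA targets split more evenly: of 27, 9, 11, 8 and 9 fell and 8, 9, 9 and 12 rose. Lpl, the lipoprotein lipase, rose by 1.88, 2.34, 2.45 and 3.42, and the fatty acid carrier Cd36 by 1.86, 2.35, 1.76 and 2.74. In CsA7 the lists held few calls: PPARA and partners 2 higher and 1 lower, other peroxisomal genes 1 higher, other ketone genes 1 lower and other PPARA targets 2 higher. Over all genes, 1.88% were called higher and 2.14% lower in CsA7. In the BDL and DDC comparisons 20.2% to 27.9% of all genes were called higher and 18.5% to 24.7% lower.

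Markers of liver cell types moved with these changes, in comparisons where 18.5% to 24.7% of all genes were called lower and 20.2% to 27.9% higher. Of 10 hepatocyte markers 9, 5, 7 and 8 fell in BDL7, BDL28, DDC7 and DDC28, with medians of -0.57, -0.32, -0.58 and -0.67, beside member medians of -0.73, -0.86, -0.64 and -0.82. Of 8 cholangiocyte markers 8, 7, 4 and 7 rose, and their summed level ranged over 305 to 496 in SHAM, 1866 to 3092 in BDL7, 1011 to 2902 in BDL28, 314 to 419 in CTLD, 1278 to 1761 in DDC7 and 1277 to 2427 in DDC28. Of 8 macrophage markers 7, 5, 6 and 6 rose, with sums of 629.7 to 866 in SHAM, 2356 to 3324 in BDL7, 1261 to 2927 in BDL28, 520.0 to 683 in CTLD, 1818 to 3391 in DDC7 and 2359.7 to 3626 in DDC28. Of 7 fibroblast and matrix markers tested 6, 5, 5 and 7 rose, with sums of 851 to 1029 in SHAM, 1818 to 2779 in BDL7, 884 to 3233 in BDL28, 1102 to 1315 in CTLD, 1736 to 2161 in DDC7 and 1878 to 3263 in DDC28. In BDL28 the highest of each of these sums was that of replicate 1. There Spp1 was at 2118 against 629, 697 and 599 in the others, Lyz2 at 851 against 333, 401 and 549, and Col1a1 at 396 against 69.8, 163 and 125. All of these lay above SHAM, but other markers of the same lists did not rise throughout. Clec4f of the macrophage list was at 98.4, 36.8, 32.5 and 96.5 in BDL28 replicates 1 to 4, below every SHAM library (111 to 164). Adgre1 was at 129.9, 44.1, 42.7 and 86.8, beside 70.2 to 84.4 in SHAM. Lum of the fibroblast list was at 150.5, 15.6, 21.4 and 26.8, beside 13.04 to 27.5 in SHAM. Dcn, the most abundant of the fibroblast list, was at 1617 against 897, 510 and 562, beside 735 to 890 in SHAM. Marker calls without that library are not given. Of 8 pericentral hepatocyte markers 5, 8, 3 and 5 fell, and of 6 endothelial markers tested 2, 4, 2 and 5 fell. Of 8 periportal hepatocyte markers, 4, 3, 2 and 3 fell and 1, 2, 3 and 4 rose. Of the kidney and intestine markers 1 passed the filter, and it fell in each of the 4 comparisons. Of the 5 adipocyte markers measured, the defining Adipoq, Plin1 and Retn were at most 1.24 in any library and Cfd at most 12.9. The fifth, Car3, a carbonic anhydrase that is also abundant in liver, lay below its controls in every ligated and DDC library: it was 5839 to 6973 in SHAM, 149 to 327 in BDL7 and 8.27 to 46.2 in BDL28, and 8599 to 9966 in CTLD, 424 to 866 in DDC7 and 37.1 to 74.4 in DDC28. The summed level of the 5 was nearly all Car3, at 5840.4 to 6976 in SHAM, 149.6 to 327 in BDL7, 10.1 to 46.2 in BDL28, 8611 to 9971 in CTLD, 424 to 867 in DDC7 and 37.1 to 74.4 in DDC28. Skeletal and heart muscle markers summed to at most 1.97. The part of the marker shifts in the members' differences was not tested.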

How the data were processed

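Liver RNA from 36 mouse samples was sequenced as 3′ tags with molecular identifiers. Per the submitters' processing notes, build GRCm39 was used with DESeq2, RSEM 1.3.1 and STAR 2.7.9a, after Trim Galore and UMI-tools 1.1.1. The strand setting of the counting is not given in the sources used here. Each deposited value is a normalized signal, a gene count that the authors divided by a size factor of the library. All values were whole multiples of 1 read within 0.001, which gave whole reads. In 1 BDL7 and 1 DDC7 library that multiple lay near 1 and the reads were taken the same way. Groups and replicate numbers came from the labels' descriptions.

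Values were tested as log2(value + 1) with limma 3.58.1 (trend and robust options, R 4.3.3) in 1 fit of all 9 groups, for genes at 10 or more in at least 4 libraries, with Benjamini-Hochberg adjustment over 12596 genes and a threshold of 0.05. Controls served both days, so comparisons against 1 control share its libraries. In data simulated for each comparison on 12596 genes, few of them changed, 157 to 164 genes were called, 4 to 8 of them unchanged. There 2-fold changes were recovered in 61% to 68% and 4-fold changes in 86% to 90%. Far more genes were called in the BDL and DDC comparisons, which eases the adjusted threshold, so these shares do not describe them. Alternatives were pseudocounts of 0.5 and 8, no filter, quantile and total-count scaling, only the groups compared, edgeR 4.0.16 on the recovered reads, the replicate number as a block, and leaving out each library.

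All 38 members are named. Beyond them, genes of the other lists are named only among the 3 called genes of lowest adjusted p in a list and comparison. The members and lists were chosen with earlier results of these data known. Promoters, gene ends and neighbours were read from GRCm38 references, not the build of the counts, and no coordinate of the counts is given. In that annotation exons of 3 members (Etfb, Acot3, Acot4) overlap another gene on the same strand and those of 11 members a gene on the opposite strand. Counting intervals are exact at 95% and, like the limit of 3 reads behind a count of 0, cover counting error only.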

Additional observations from a re-analysis of the deposited data

Results flagged for a closer look

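In 15 of 333 groups of 4 libraries searched, 1 library lay far from the other 3 by Dixon's 95% critical value, which compares the gap to the nearest library with the range of the group. Chance flags about 1 group in 20. The normalized counts were, for enzymes of mitochondrial and peroxisomal oxidation, those of Crat in DDC28 replicate 1 (53, nearest 43.4), Decr1 in BDL7 replicate 2 (381, nearest 303), Etfa in VEHICLE replicate 4 (858, nearest 701), Etfdh in DDC7 replicate 3 (360, nearest 256), Decr2 in VEHICLE replicate 1 (730, nearest 643) and Decr2 in CTLD replicate 3 (701, nearest 525). For the Cyp4a and thioesterase genes they were those of Cyp4a14 in BDL28 replicate 3 (442, nearest 119), Cyp4a31 in SHAM replicate 2 (29.8, nearest 16.8), Acot3 in BDL7 replicate 1 (4.18, nearest 13.2), Acot3 in CTLD replicate 3 (0, nearest 3.04) and Acot3 in DDC28 replicate 4 (34, nearest 42.5). The remaining values were those of Acsl1 in SHAM replicate 3 (2773, nearest 3092), Fabp1 in BDL28 replicate 1 (586, nearest 86.8), Pdk4 in CsA28 replicate 2 (26.8, nearest 15.2) and Creb3l3 in CsA7 replicate 1 (523, nearest 621).

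The effects of ligation and DDC differed by limma's test for Hadha at day 7 (0.679) and day 28 (0.445), Acads at day 28 (-0.821) and Ehhadh at day 28 (-1.67). The day 28 calls of Hadha and Ehhadh were lost without the filter on low values (0.45, adjusted p = 0.085, and -1.67, adjusted p = 0.088), with quantile normalization (0.42, adjusted p = 0.064, and -1.61, adjusted p = 0.053) and with only the 4 groups compared in the fit (0.45, adjusted p = 0.069, and -1.67, adjusted p = 0.11). That of Hadha was also lost with total-count scaling (0.35, adjusted p = 0.13), that of Ehhadh by edgeR (-1.40, adjusted p = 0.051), and both without any of several single libraries. Against CsA, effects differed for 22 members in BDL7, 19 in DDC7, 25 in BDL28 and 24 in DDC28.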

How the results depend on the processing

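In the comparisons with a control and between days, called members kept their direction under every alternative run except for Acadl and Hadh. Acadl turned to 0.036 in DDC7 and 0.016 in DDC28 with total-count scaling, and Hadh in DDC7 to 0.026 with quantile normalization and 0.098 with total-count scaling. Acadm in BDL7, not called with the deposited scaling, was called higher by limma with quantile normalization (0.31, adjusted p = 0.0076) and total-count scaling (0.32, adjusted p = 0.0055). The cause was not tested.

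Total-count scaling gave 2 members higher in CsA7, 8 higher in DDC7, 7 higher in DDC28, 2 lower from CsA7 to CsA28, 2 above and 11 below for DDC7 against CsA7, and 4 above for DDC28 against CsA28. Quantile normalization gave 0 higher from CsA7 to CsA28, 1 above for DDC7 against CsA7 and 0 lower for VEHICLE against SHAM. Without the filter, CsA7 had 0 higher, CsA28 against CsA7 had 0 higher and VEHICLE against SHAM 0 lower. With only the groups compared in the fit, CsA7 had 0 higher, BDL28 against BDL7 1 higher and 6 lower, DDC28 against DDC7 4 lower, BDL7 against CsA7 0 above, and CTLD against SHAM 11 higher and 1 lower. For BDL28 against DDC28, no filter, quantile normalization and only the groups compared each gave 0 above and 1 below, total-count scaling gave 0 above, and edgeR 1 below. edgeR gave 3 higher in CsA7.

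Same-numbered replicates did not deviate together (0 of 4 pairs over a correlation of 0.1, or 2 of 4 between BDL7 and BDL28), so the numbers were not taken as pairs. These are the numbers of the descriptions. The titles carry other numbers for many libraries, and pairing by title was not tested. With the replicate block, CsA7 had 2 higher and 1 lower, CsA28 against CsA7 2 lower and VEHICLE against SHAM 1 lower, and no other count moved by over 1.5 times. The block ended the call of Vnn1 in DDC7 (-0.97, adjusted p = 0.051) and added those of Acsl1 and Acot4 in CsA7, Cyp4a10 in DDC28, Acot4 from BDL7 to BDL28, Eci2 from CsA7 to CsA28 and Eci1 from DDC7 to DDC28.

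Leaving out 1 library gave these ranges, higher then lower: 4 to 4 and 24 to 26 in BDL7, 2 to 3 and 26 to 26 in BDL28, 0 and 0 in CsA28, 0 to 3 and 0 to 1 in CsA7, 4 to 6 and 20 to 26 in DDC7, 3 to 3 and 25 to 26 in DDC28, 2 to 5 and 8 to 12 for BDL28 against BDL7, 0 to 1 and 0 to 1 for CsA28 against CsA7, and 0 and 1 to 2 for DDC28 against DDC7. For differences of effects the ranges, above then below, were 1 and 0 for BDL7 against DDC7, 0 to 2 and 21 to 23 for BDL7 against CsA7, 0 to 2 and 17 to 21 for DDC7 against CsA7, 0 to 2 and 1 to 5 for BDL28 against DDC28, 2 to 3 and 20 to 24 for BDL28 against CsA28, and 2 to 3 and 20 to 22 for DDC28 against CsA28. For controls they were 5 to 9 and 0 to 1 for VEHICLE against SHAM and 2 to 5 and 0 for CTLD against SHAM. At the depth here Acot3 rested on 3 reads in SHAM and Cyp4a32 could not be tested.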
